A study of Mus musculus with 10 samples.

Results

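Hyaluronan genes were followed in the first pharyngeal arch (PA1) of mouse embryos that lack *Grhl2*. The 9 genes were *Has1*, *Has2* and *Has3*, which encode the hyaluronan synthases, *Hyal1* and *Hyal2*, which encode hyaluronidases, *Cd44* and *Hmmr*, which encode hyaluronan receptors, and *Vcan* and *Hapln1*, which encode matrix proteins that bind it. They are 9 of the 22114 protein-coding genes in the count table. They were chosen by a measured value, the rise of *Has2* in *Grhl2*-/- PA1 in these same arches, to ask whether other hyaluronan genes rose with it. *Has2* is therefore described here without a test, and tests are given for the other members.

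PA1 was dissected at E10.5 from 5 wild-type (*Grhl2*+/+) and 5 *Grhl2*-/- male embryos on a C57BL/6 background (C57BL/6J in the study's methods), and each arch gave 1 stranded total RNA library depleted of ribosomal RNA. PA1 forms the upper and lower jaw primordia and consists of mesenchyme, mostly from neural crest, with a thin epithelial lining. The null allele of *Grhl2*, a transcription factor of that epithelium, was present in all cells of the embryo, carried a β-galactosidase reporter and was maintained by crossing heterozygous mice. The labels do not say which embryos shared a litter. Whole arches were sequenced, so fewer cells of a type and less RNA per cell cannot be told apart.

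Hyaluronan is a long, unbranched sugar polymer that HAS enzymes build at the plasma membrane from UDP-glucuronic acid and UDP-N-acetylglucosamine and extrude into the space between cells. HAS2 is the main synthase of the embryo, where hyaluronan swells the matrix of mesenchyme and of the endocardial cushions of the heart. Versican, a large proteoglycan, binds the polymer through its head domain and the link protein HAPLN1 locks that contact. CD44 binds hyaluronan at the cell surface, hyaluronidases cut it, and ADAMTS proteases cut versican.

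Between 22188454 and 28596428 reads per wild-type arch and between 25658389 and 28801378 per *Grhl2*-/- arch were counted on protein-coding genes. At these depths, 3 reads, taken as the detection floor, were worth 0.104 to 0.136 CPM, the read count scaled to library size with TMM factors (trimmed mean of M-values). *Grhl2* itself had 35.5 ± 3.29 CPM (SD, n = 5) in wild-type and 4.53 ± 1.45 CPM (SD, n = 5) in *Grhl2*-/- arches, with 794 to 1163 reads against 81 to 178. Epithelial marker transcripts (*Cdh1*, *Epcam* and 6 others) summed to 269 to 367 CPM in wild-type and 110 to 201 CPM in *Grhl2*-/- arches. Of these 8, 6 were lower at a false discovery rate (FDR) below 0.01, against 1.09% of all genes tested. Ectomesenchyme markers such as *Prrx1* and *Twist1* summed to 1530 to 1944 CPM in wild-type and 1288 to 1554 CPM in *Grhl2*-/- arches. The highest wild-type sums, 1944 and 1844 CPM, were in arches 1 and 2, and the 3 others had 1530 to 1650 CPM. Of the 8 genes, 0 had a positive log2 fold change, and the median was -0.19. At FDR below 0.01, 1 was lower, *Msx1*, and at FDR below 0.05, 2 were lower, against 1.09% and 3.87% of all genes tested. Wild-type arches 1 and 2 stood apart: sensory neuron transcripts summed to 49.0 and 41.8 CPM in them, to 601 to 1020.5 CPM in the 3 other wild-type arches and to 338 to 1321 CPM in the *Grhl2*-/- arches. Glia markers summed to 49.0 and 46.1 CPM in the same 2 arches, to 129.5 to 200.7 CPM in the 3 other wild-type arches and to 77.4 to 228.6 CPM in the *Grhl2*-/- arches. None of the 9 sensory neuron genes was called, though their median log2 fold change was 2.02. Results are therefore also given without these 2 arches.

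Promoter sequence of members is shown here because the lost protein is a DNA-binding factor. RefSeq windows on GRCm38.p6, from 250 bases before to 50 bases after the start of a gene, were matched for 7 of the 9 members; *Has2* and *Has3* were not matched. The GRHL recognition sequence AACCGGTT, which reads the same on both strands, was in 0 of these 7 windows and in 0.146% of all 32851 RefSeq promoter windows. Its looser form AACNGGTT, searched on both strands and including every AACCGGTT, was in 0 of 7 and in 2.09% of all windows. The sequence CACCTG, bound by ZEB and SNAI repressors and searched on both strands, was in 0 of 7 and in 20.2% of all windows. The GC box core GGGCGG, searched on both strands, was in 5 of 7 windows and in 35.7% of all. These counts describe 7 windows only, and letters missing from a window say nothing about binding of a factor elsewhere. Both GRHL forms are so rare in all windows that 0 of 7 was likely for any 7 genes and tells nothing about these. The 250 bases before the start are printed for *Vcan*, *Hmmr* and *Cd44*. These are the matrix protein and the 2 receptors for which these bases also lay wholly upstream of the gene in GENCODE M21. The bases run 5′ to 3′ on the strand of the gene, with GC box cores in capitals. The printed *Cd44* stretch has no such core, because the core in its window lies after the start.
Vcan (chr13:89742513-89742762, minus strand, GRCm38.p6): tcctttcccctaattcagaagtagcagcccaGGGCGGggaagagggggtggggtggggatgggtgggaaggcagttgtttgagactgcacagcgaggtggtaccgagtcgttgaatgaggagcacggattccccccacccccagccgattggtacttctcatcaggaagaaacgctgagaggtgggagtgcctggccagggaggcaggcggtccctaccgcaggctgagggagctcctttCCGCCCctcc
Hmmr (chr11:40733438-40733687, minus strand, GRCm38.p6): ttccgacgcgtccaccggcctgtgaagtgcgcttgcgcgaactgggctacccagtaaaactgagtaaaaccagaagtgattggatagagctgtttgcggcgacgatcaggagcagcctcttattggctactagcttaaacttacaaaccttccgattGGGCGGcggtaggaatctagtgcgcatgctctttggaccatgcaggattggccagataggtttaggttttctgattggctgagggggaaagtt
Cd44 (chr2:102901666-102901915, minus strand, GRCm38.p6): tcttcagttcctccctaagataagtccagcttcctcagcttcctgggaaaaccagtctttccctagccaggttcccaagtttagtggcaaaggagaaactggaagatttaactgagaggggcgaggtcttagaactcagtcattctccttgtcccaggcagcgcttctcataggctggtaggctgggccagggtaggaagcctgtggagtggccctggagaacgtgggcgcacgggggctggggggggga

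The synthase genes were expressed at very different levels, and *Has2* made up nearly all of the synthase transcript. *Has2*, on chromosome 15 of GRCm38 from 56665627 to 56694539, had 63.9, 60.3, 68.0, 68.8 and 52.7 CPM in wild-type arches 1 to 5. In *Grhl2*-/- arches 1 to 5 it had 111.4, 105.2, 106.3, 94.4 and 103.5 CPM. All 5 *Grhl2*-/- arches lay above all 5 wild-type arches, and the lowest of them, arch 4, was 94.4 CPM against a wild-type maximum of 68.8. The means were 62.7 ± 6.57 and 104.2 ± 6.20 CPM (SD, n = 5), or 1.66-fold, which is a difference of 0.73 on the log2 scale. The difference of 41.4 CPM rested on 1305 to 1951 reads per wild-type arch and 2653 to 3123 per *Grhl2*-/- arch.

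The size of the *Has2* difference varied little with the arches used, which is a description and no independent support, since this contrast chose the members. Across 20 refits with another tool, scaling, filter, covariate or set of arches, the log2 fold change of *Has2* stayed between 0.67 and 0.77, and without wild-type arches 1 and 2 it was 0.71. The labels carry a number that some wild-type and *Grhl2*-/- arches share, and within the numbers 566, 568 and 588 the log2 difference was 0.68, 0.74 and 0.71. Over all 14561 genes tested, 7.86% had a fold change at least as large as that of *Has2* in either direction. The exons of *Has2* share 182 bases with the antisense gene *Has2os*, and while the libraries were stranded and the name of the count table contains the word reverse, no source used here states the strand setting of the counting.

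*Has3*, on chromosome 8 from 106870242 to 106884566, was at a low level that differed widely between arches of 1 genotype. Its values in wild-type arches 1 to 5 were 2.18, 1.76, 0.558, 2.33 and 1.25 CPM, from 16 to 64 reads. In *Grhl2*-/- arches 1 to 5 they were 0.642, 2.21, 4.08, 1.53 and 2.24 CPM, from 18 to 118 reads. The groups overlapped, and the lowest arch of each genotype was the one that carried the label number 588. The log2 fold change was 0.35 (95% confidence interval (CI) -0.75 to 1.45, FDR 0.679), a wide interval that rests on few reads. Without wild-type arch 3 the log2 fold change was -0.013, and without wild-type arches 1 and 2 it was 0.62 (FDR 0.630). *Has3* shares 352 exon bases with *Chtf8* on the opposite strand.

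*Has1* (chromosome 17, 17843323 to 17855205) was nearly silent, with 0 to 3 reads in each wild-type arch and 1 or 2 in each *Grhl2*-/- arch. Both groups were at or under the floor of 3 reads, so the gene was not tested and no fold is given. Per kilobase of exon, *Has2* made up 98.2 ± 0.754% of the summed synthase CPM in wild-type and 98.6 ± 0.769% in *Grhl2*-/- arches (SD, n = 5).

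**Figure D1:**
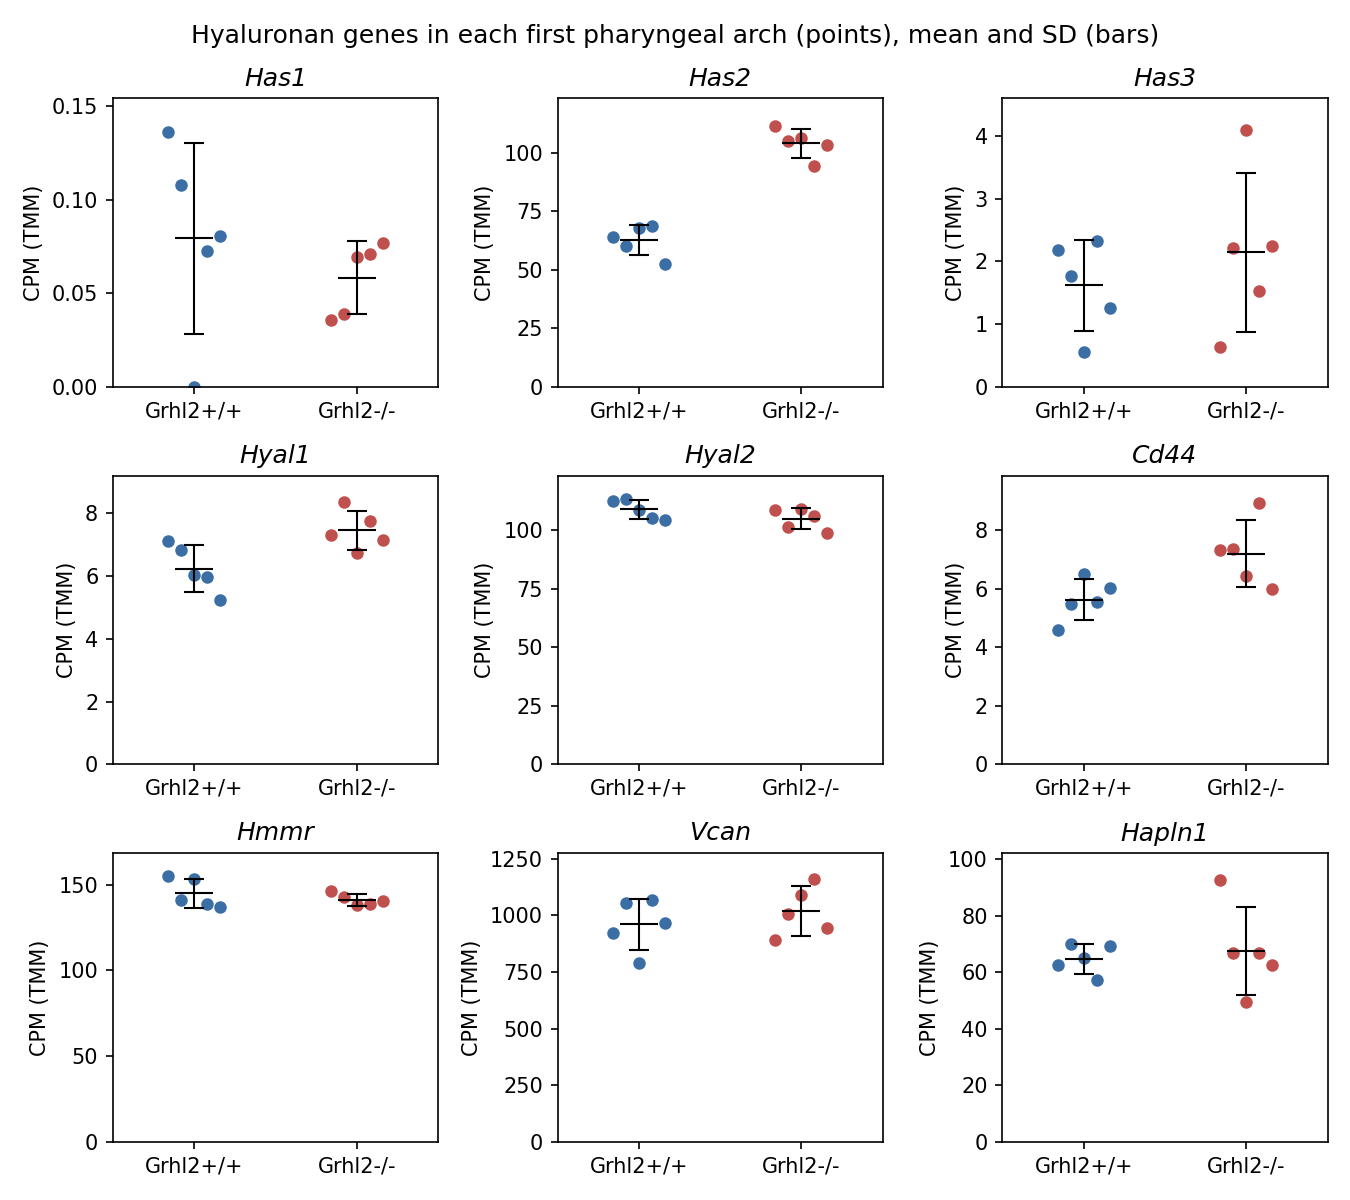
TMM-normalized CPM (vertical axis, from 0, a separate scale for each gene) of the 9 hyaluronan genes in the 5 wild-type (blue) and 5 *Grhl2*-/- (red) arches, drawn from arch 1 on the left to arch 5 on the right; horizontal marks are means and bars are SD. The *Has2* groups are separate, at 52.7 to 68.8 and 94.4 to 111.4 CPM, whereas the groups of the 8 other genes overlap.

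The 2 hyaluronidase genes lie next to each other on chromosome 9, on the same strand, with 4147 bases between them, and differed greatly in level. *Hyal2*, from 107567945 to 107572779, encodes a hyaluronidase anchored in the cell membrane and had 112.6, 113.4, 108.6, 105.3 and 104.4 CPM in wild-type arches 1 to 5. It had 108.7, 101.5, 108.9, 105.9 and 98.8 CPM in *Grhl2*-/- arches 1 to 5. The groups overlapped, with means of 108.9 ± 4.09 and 104.8 ± 4.48 CPM (SD, n = 5). The log2 fold change was -0.05 (95% CI -0.15 to 0.04, FDR 0.400).

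*Hyal1*, from 107576927 to 107581710, encodes a lysosomal hyaluronidase and had 7.13, 6.83, 6.03, 5.96 and 5.25 CPM in wild-type arches 1 to 5. In *Grhl2*-/- arches 1 to 5 it had 7.31, 8.37, 6.75, 7.76 and 7.14 CPM. All but arch 3 of the *Grhl2*-/- arches lay above the highest wild-type arch. The log2 fold change of 0.26 (standard error 0.0988, 95% CI 0.05 to 0.48) had an unadjusted p of 0.0214 and did not pass after adjustment (FDR 0.114, limma-voom). It was 0.35 (FDR 0.163) without wild-type arches 1 and 2. The value is uncertain as a measure of *Hyal1*, because 51.9% of its 3777 exon bases are shared with genes on the same strand, 1920 with *Naa80* and 159 with *Hyal3*, and the counting of such reads cannot be separated here.

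The 2 receptor genes had no call. *Cd44*, on chromosome 2 from 102811141 to 102901665, encodes the main cell surface receptor of hyaluronan and had 4.59, 5.50, 6.52, 5.56 and 6.02 CPM in wild-type arches 1 to 5. In *Grhl2*-/- arches 1 to 5 it had 7.35, 7.36, 6.44, 8.93 and 5.98 CPM. Arches 1, 2 and 4 of the *Grhl2*-/- group were above every wild-type arch, and arches 3 and 5 were within the wild-type range. The means were 5.64 ± 0.715 and 7.21 ± 1.13 CPM (SD, n = 5), and the log2 fold change of 0.34 (standard error 0.127, 95% CI 0.07 to 0.62) did not pass the threshold (unadjusted p 0.0196, FDR 0.110, limma-voom). Without wild-type arches 1 and 2 it was 0.23 (FDR 0.422). The counts are per gene, so the splice forms of *Cd44*, of which the gene has many, cannot be told apart.

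*Hmmr*, on chromosome 11 from 40701395 to 40733422, encodes a hyaluronan-binding protein that also sits on the mitotic spindle. It had 155.0, 141.2, 153.2, 138.7 and 137.0 CPM in wild-type arches 1 to 5 and 146.5, 143.0, 138.0, 138.4 and 140.4 CPM in *Grhl2*-/- arches 1 to 5. All 5 *Grhl2*-/- values lay within the wild-type range, and the log2 fold change was -0.04 (95% CI -0.13 to 0.06, FDR 0.618). Because *Hmmr* is expressed in dividing cells, 12 mitotic genes such as *Mki67*, *Plk1* and *Bub1* were set beside it. None of them was called higher or lower at FDR below 0.01, against 0.879% and 1.09% of all genes tested. At FDR below 0.05, 1 was lower, against 3.87% of all genes, and the median log2 fold change of the 12 was -0.07. Their summed level was 5410 to 5644 CPM in wild-type and 5244 to 5465 CPM in *Grhl2*-/- arches.

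The 2 matrix genes are neighbours on chromosome 13, on opposite strands with their 3′ ends facing and 43659 bases between them. *Vcan*, from 89655312 to 89742509, encodes versican and was the most abundant member, with 921.1, 1053.1, 788.2, 1068.6 and 966.4 CPM in wild-type arches 1 to 5. It had 890.5, 1005.6, 1091.1, 1161.4 and 942.4 CPM in *Grhl2*-/- arches 1 to 5. The ranges overlapped, and the lowest arch of each genotype was the one with label number 588. The means were 959.5 ± 113.5 and 1018.2 ± 109.6 CPM (SD, n = 5), which differed by 0.09 on the log2 scale (95% CI -0.11 to 0.29, FDR 0.555). This value was 0.014 without wild-type arch 3 and 0.039 without *Grhl2*-/- arch 4.

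*Hapln1*, from 89539796 to 89611652, encodes the link protein and had 62.4, 70.1, 65.2, 57.1 and 69.4 CPM in wild-type arches 1 to 5. It had 92.5, 66.8, 49.6, 66.9 and 62.5 CPM in *Grhl2*-/- arches 1 to 5. The *Grhl2*-/- arches were spread on both sides of the wild-type range, with arch 1 highest and arch 3 lowest of all 10. The coefficient of variation was 23.1% in *Grhl2*-/- against 8.24% in wild-type arches, a difference that was not tested. The log2 fold change was 0.03 (95% CI -0.26 to 0.33, FDR 0.889), and it was -0.10 without *Grhl2*-/- arch 1 and -0.01 without wild-type arch 4.

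Of the 7 other members tested, 0 were called higher and 0 lower at FDR below 0.01 by limma-voom, against 0.879% and 1.09% of all 14561 genes tested. The counts were also 0 by edgeR's quasi-likelihood test, which called 0.975% of genes higher and 1.11% lower, and by DESeq2, which called 3.57% and 3.8%. At an unadjusted p below 0.05 there were 2, *Hyal1* and *Cd44*, against 28.5% of all genes tested, a share near that of the members. At FDR below 0.05 there were 0, against 3.84% of all genes higher and 3.87% lower. None of the 7 had all *Grhl2*-/- arches above all wild-type arches, which held for 4.22% of all genes. Of these 7 genes, 5 had a positive log2 fold change, and the median was 0.09, whereas 52.7% of all genes tested were positive with a median of 0.01. The upper bound of the 95% CI was between 0.04 and 0.62 for 6 of the 7 genes and was 1.45 for *Has3*. Without wild-type arches 1 and 2 the estimates for *Hyal2*, *Hmmr*, *Vcan* and *Hapln1* were -0.03, -0.03, 0.10 and 0.04. Within the label numbers 566, 568 and 588, the log2 differences were 0.35, 0.63 and 0.17 for *Cd44*, 0.14, 0.20 and 0.18 for *Vcan*, and 0.05, 0.37 and 0.28 for *Hyal1*. They were 0.85, 0.04 and 0.20 for *Has3*, -0.09, -0.01 and -0.06 for *Hmmr* and -0.27, -0.06 and 0.51 for *Hapln1*, and for *Hyal2* they lay between -0.04 and 0.0020. Each number holds 1 or 2 arches of a genotype, so a difference within a single number has no test of its own. A fit over all arches with the number as a block is given at the end for *Has2* and *Vcan*. With so few members, an absence of calls at a background of this size says little about the list.

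Per length, the order of the members was the same in both genotypes. In wild-type arches the levels, in CPM per kilobase of exon, were 66.3 for *Vcan*, 33.1 for *Hyal2*, 26.7 for *Hmmr*, 14.8 for *Has2*, 10.99 for *Hapln1*, 1.65 for *Hyal1*, 0.832 for *Cd44*, 0.253 for *Has3* and 0.0176 for *Has1*. The ranges of neighbours in this order did not overlap in wild-type arches. In *Grhl2*-/- arches the levels were 70.4 for *Vcan*, 31.8 for *Hyal2*, 26.0 for *Hmmr*, 24.6 for *Has2*, 11.5 for *Hapln1*, 1.98 for *Hyal1*, 1.06 for *Cd44*, 0.336 for *Has3* and 0.0129 for *Has1*. The order was kept, but *Has2*, at 22.3 to 26.3 CPM per kilobase, now overlapped with *Hmmr*, at 25.4 to 27.0, so this pair could no longer be ranked. Level per length ignores which exons are used in PA1, and the exon length of *Cd44* and *Vcan* includes exons of all their splice forms.

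**Figure D2:**
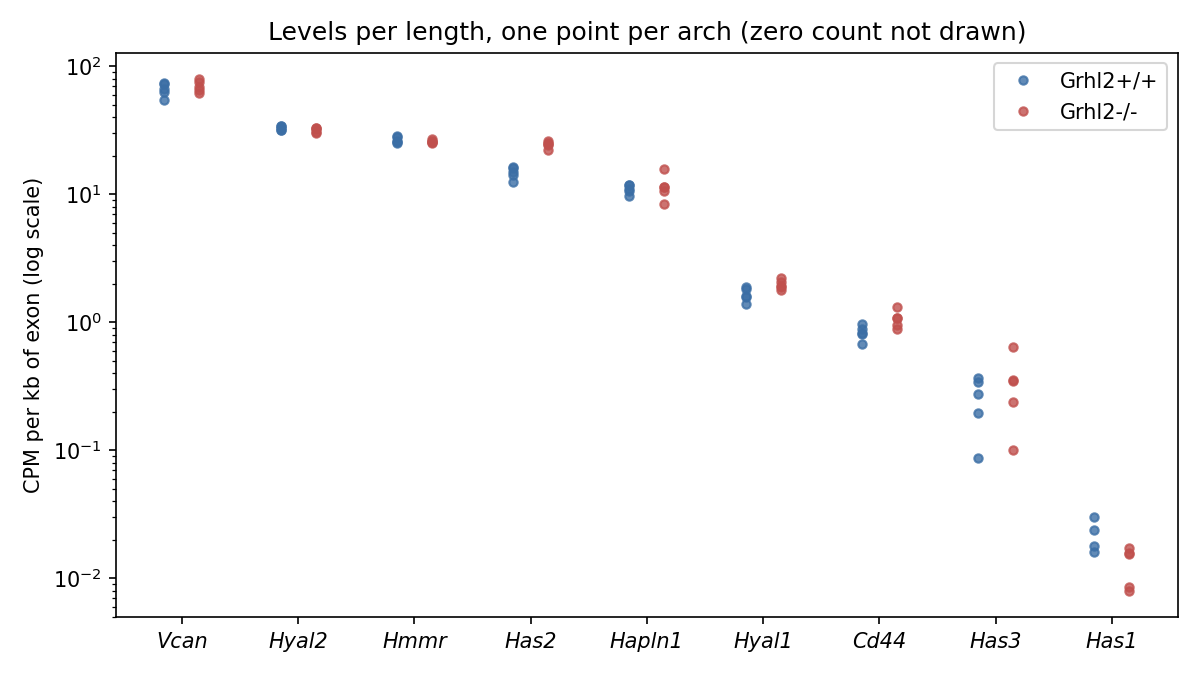
Level of each hyaluronan gene in CPM per kilobase of exon (vertical log axis), with 1 point per arch, wild-type in blue and *Grhl2*-/- in red, and with the 1 arch without *Has1* reads not drawn. *Has2* moves from a range of 12.4 to 16.2 in wild-type to 22.3 to 26.3 in *Grhl2*-/- arches, where it overlaps with *Hmmr* at 25.4 to 27.0, while the other genes keep to overlapping ranges.

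Ratios taken within an arch do not depend on the total of its library, and they describe how far synthase and other transcripts moved apart. The ratio of *Has2* to *Hyal2*, both per kilobase, was 0.448 ± 0.0486 (SD, n = 5) in wild-type arches, with a range of 0.392 to 0.508. In *Grhl2*-/- arches it was 0.773 ± 0.0499, with a range of 0.693 to 0.814, so the groups were separate. The ratio of *Has2* to *Vcan* was 0.227 ± 0.0429 in wild-type and 0.354 ± 0.0550 in *Grhl2*-/- arches, and the ranges of 0.186 to 0.294 and 0.277 to 0.427 overlapped. The ratio of *Vcan* to *Hapln1*, which form a complex with hyaluronan, was 6.08 ± 0.986 and 6.46 ± 1.83, with ranges of 4.94 to 7.63 and 3.93 to 8.98. The first 2 of these ratios contain *Has2* and so repeat the difference that chose the members. The third contains other members only, and its *Grhl2*-/- range enclosed the wild-type range.

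**Figure D3:**
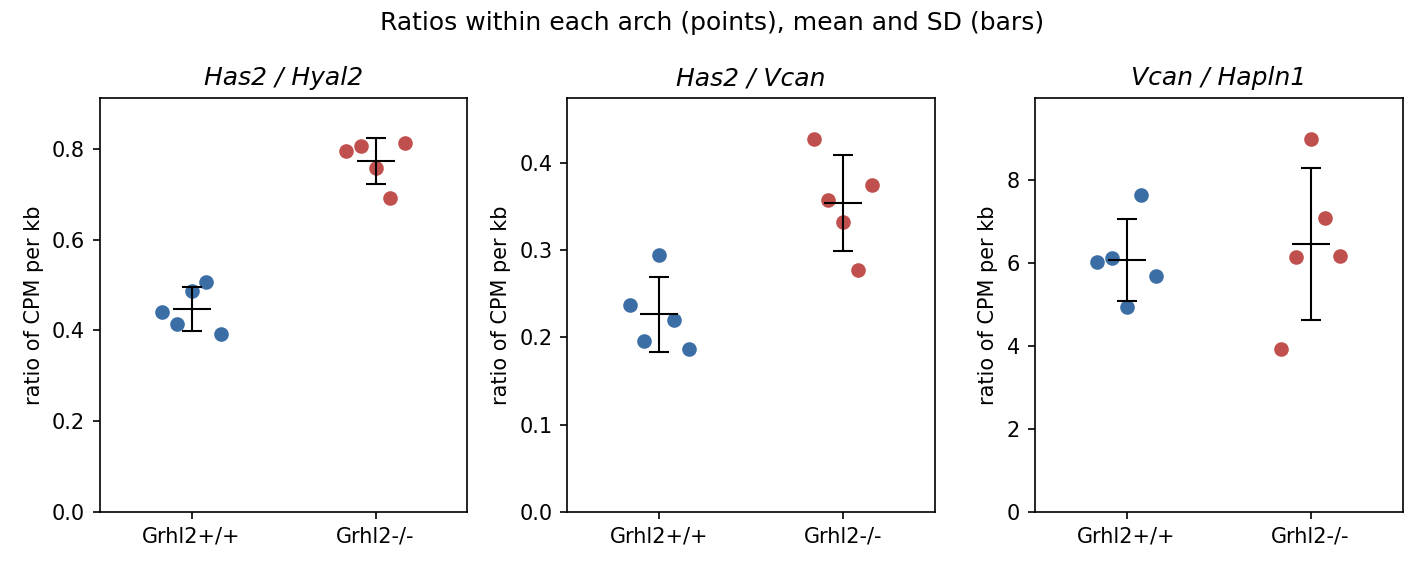
Ratios of CPM per kilobase of exon within each arch (vertical axes, from 0) for *Has2* to *Hyal2*, *Has2* to *Vcan* and *Vcan* to *Hapln1*, with wild-type arches in blue, *Grhl2*-/- arches in red, means as horizontal marks and SD as bars. The ratio of *Has2* to *Hyal2* is separate between genotypes, at 0.392 to 0.508 and 0.693 to 0.814, and the other 2 ratios overlap.

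Around the 9 members, 46 further genes of hyaluronan biology were taken as a list, and 35 of them had at least 10 reads in at least 1 arch and were tested. At FDR below 0.01, 2 were higher and 0 lower, against 0.879% and 1.09% of all genes tested. Both were ADAMTS proteases that cleave versican. *Adamts4* had 18.1, 16.7, 17.5, 18.2 and 19.3 CPM in wild-type arches 1 to 5 and 21.8, 21.5, 22.01, 23.7 and 24.7 CPM in *Grhl2*-/- arches 1 to 5. The groups were separate, and the log2 difference was 0.34 (SE 0.0597, FDR 0.00682, limma-voom; SE is the moderated standard error). *Adamts15* had 20.3, 19.3, 21.3, 23.2 and 20.2 CPM in wild-type arches 1 to 5 and 28.5, 26.1, 30.8, 32.2 and 25.7 CPM in *Grhl2*-/- arches 1 to 5. These groups were separate as well, and the log2 difference was 0.46 (SE 0.0771, FDR 0.00593, limma-voom).

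Both calls were near the threshold. When 1 arch was left out at a time, *Adamts4* was called in 2 and *Adamts15* in 3 of 10 fits, with log2 fold changes of 0.31 to 0.37 and 0.41 to 0.50. Over all genes, the number called higher went from 128 to between 42 and 143 in these fits. Without wild-type arches 1 and 2, both low in sensory neuron transcripts, the FDR was 0.0881 for *Adamts4* and 0.0744 for *Adamts15*, at log2 fold changes of 0.30 and 0.39. With the mean of sensory neuron transcripts as a covariate the FDR was 0.0294 and 0.0209, at log2 fold changes of 0.32 and 0.42. All 6 genes of the versican-cleaving group, *Adamts1*, *Adamts4*, *Adamts5*, *Adamts9*, *Adamts15* and *Adamts20*, had a positive log2 fold change, with a median of 0.33, and 2 of them passed. Over all genes tested, 52.7% were positive, the median was 0.01 and 0.879% were called higher, and the 6 genes were listed with earlier results known. The most abundant of them per length, *Adamts1*, had 65.6 ± 3.78 and 74.2 ± 10.1 CPM (SD, n = 5; log2 fold change 0.17, FDR 0.229).

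The remaining groups of the list had no call at FDR below 0.01. The 8 genes that supply the sugar precursors had a median log2 fold change of -0.05, and the most abundant per length, *Ugp2*, which makes UDP-glucose, had 71.9 ± 5.51 and 66.3 ± 3.62 CPM (SD, n = 5). Of 10 genes of hyaluronan breakdown, 6 were tested, with a median of 0.19. The most abundant of these was *Tmem2*, which encodes a membrane protein described as a hyaluronidase, with 328.5 ± 40.8 and 381.1 ± 66.9 CPM (SD, n = 5; FDR 0.268). Its values overlapped between genotypes. *Cemip*, another gene of hyaluronan breakdown, had 21.5 CPM in *Grhl2*-/- arch 4, from 603 reads, and between 0.194 and 4.81 CPM in the other 9 arches, and its log2 fold change of 1.26 (FDR 0.521) was 0.38 (FDR 0.811) without that arch.

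Of the 6 other receptor genes, all were tested and their median log2 fold change was 0.24. *Stab1*, a scavenger receptor of endothelium and macrophages, was the most abundant of them, with 59.0 ± 3.95 and 80.1 ± 10.6 CPM (SD, n = 5) and separate groups (log2 fold change 0.43, FDR 0.0138). Without wild-type arches 1 and 2 it was 0.38 (FDR 0.134). Endothelial markers summed to 362 to 411 CPM in wild-type and 402 to 469 CPM in *Grhl2*-/- arches. Of the 8, 7 had a positive log2 fold change, 0 were higher at FDR below 0.01 and 2 at FDR below 0.05. Over all genes tested, 0.879% and 3.84% were higher at these thresholds. Macrophage markers summed to 24.6 to 34.9 and 20.3 to 64.5 CPM, with 0 of 7 called at either threshold. The part of either cell type in the *Stab1* values was not tested. *Lyve1*, an endothelial hyaluronan receptor, was at most 0.348 CPM in any wild-type arch and at most 0.712 CPM in any *Grhl2*-/- arch.

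Of 6 further lecticans and link proteins, 4 were tested, at low levels. Their median log2 fold change was 0.72, and it was 0.24 without wild-type arches 1 and 2 and 0.31 with the sensory neuron covariate. *Ncan*, which encodes the brain lectican neurocan, had 1.82 and 1.55 CPM in those 2 arches, 3.87 to 7.996 CPM in the 3 other wild-type arches and 2.64 to 10.002 CPM in *Grhl2*-/- arches. Its log2 fold change was 0.78 (FDR 0.294) and was 0.14 without the 2 arches. *Bcan* had 2 and 0 reads in them, and its log2 fold change was 1.11 (FDR 0.366) with them and -0.17 without. The part of sensory neuron RNA in these values was not tested. The most abundant per length was *Hapln3*, a link protein, at 1.97 ± 0.394 and 3.20 ± 0.816 CPM (SD, n = 5; log2 fold change 0.66, FDR 0.0688), with 0.64 (FDR 0.222) without the 2 arches. Of 10 other proteins that bind hyaluronan, 5 were tested, with a median of -0.10. *Tnfaip6*, which transfers heavy chains onto hyaluronan, was the most abundant per length, at 47.1, 37.6, 31.8, 38.2 and 32.6 CPM in wild-type arches 1 to 5 and 21.4, 24.0, 32.3, 22.9 and 20.3 CPM in *Grhl2*-/- arches 1 to 5. *Grhl2*-/- arch 3 lay within the wild-type range and the 4 others below it, with a log2 fold change of -0.62 (FDR 0.0193), or -0.52 (FDR 0.0901) without wild-type arches 1 and 2.

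At the looser threshold of FDR below 0.05, 6 of the 35 genes were higher and 2 lower, against 3.84% and 3.87% of all genes tested. Without wild-type arches 1 and 2, 0 were higher and 0 lower at this threshold, against 0.592% and 1.11% of the genes tested there. With all arches kept and the sensory neuron covariate, 4 were higher and 0 lower, and the share over all genes was not computed for that fit at this threshold. The 6 were *Adamts4*, *Adamts5*, *Adamts15*, *Stab1*, *Hexa*, a lysosomal hexosaminidase (log2 fold change 0.36, FDR 0.0123), and *Uap1l1* (0.72, FDR 0.0215). The 2 were *Tnfaip6* and *Gfpt2*, an enzyme at the entry of the hexosamine pathway (-0.41, FDR 0.0159). Without those 2 arches the log2 fold change was 0.30 for *Hexa* (FDR 0.137), 0.54 for *Uap1l1* (FDR 0.169), 0.42 for *Adamts5* (FDR 0.157) and -0.38 for *Gfpt2* (FDR 0.103). *Hexa*, *Uap1l1*, *Adamts5*, *Gfpt2*, *Cemip*, *Lyve1*, *Ncan* and *Bcan* were named after their values were seen. In 5 of the 35 genes all *Grhl2*-/- arches were above all wild-type arches, against 4.22% of all genes, and in 1, *Gfpt2*, all were below, against 4.66%. Of the 35 genes 23 had a positive log2 fold change, and the median was 0.17 beside 0.01 over all genes tested. The list was drawn up with earlier results of these data known, so these counts are a description.

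**Figure D4:**
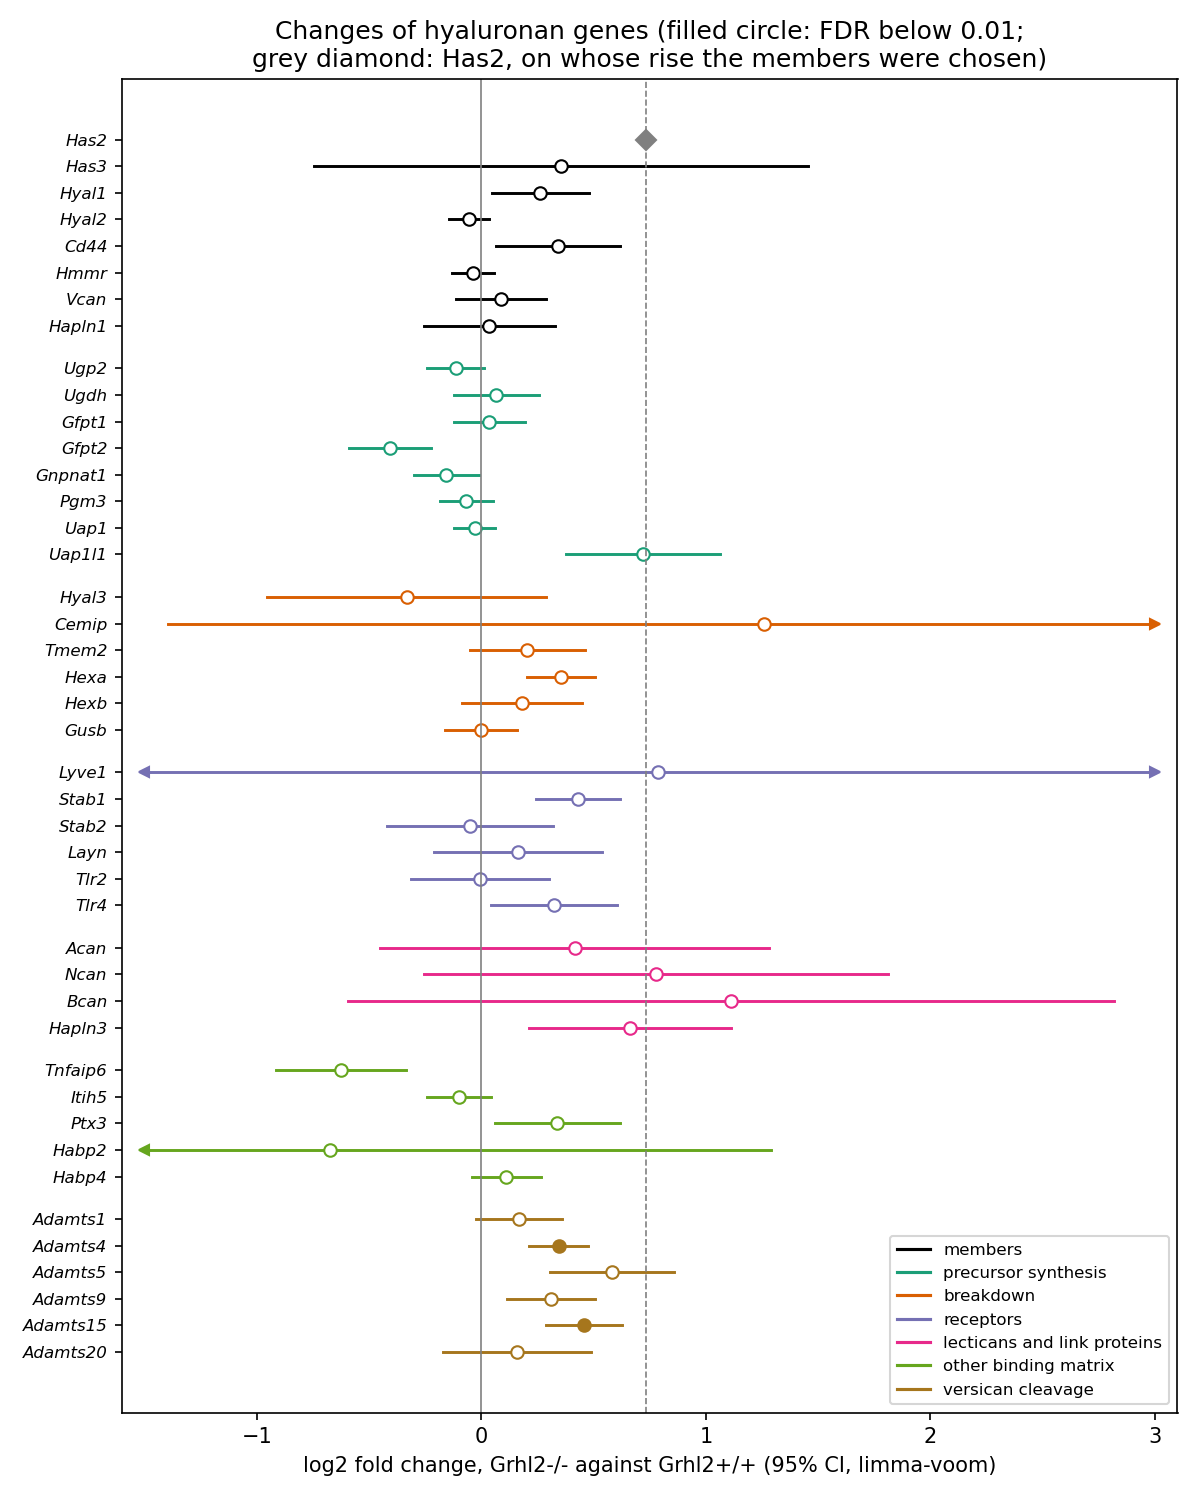
Log2 fold change of *Grhl2*-/- against wild-type arches (horizontal axis) with its 95% confidence interval from limma-voom (not drawn for *Has2*), for the 8 members and 35 other hyaluronan genes tested, coloured by role; filled circles have FDR below 0.01, the grey diamond and dashed line mark *Has2*, and arrowheads mark intervals that run past the axis. *Has2* is at 0.73, the 7 other members lie between -0.05 and 0.35, and the 2 filled circles are *Adamts4* and *Adamts15*.

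The genes whose pattern over the 10 arches was most like that of *Has2* are given as a description. None of them was a hyaluronan gene, but the hyaluronan list holds so few of all genes that this says little. Among 12691 genes with a mean of at least 1 CPM, the highest Pearson r of log2 CPM with *Has2* was 0.960 for *Athl1*, followed by 0.955 for *Plch1*, 0.949 for *Six5*, 0.948 for *Ddr1* and 0.948 for *Ift46*. Among the members, r with *Has2* was 0.72 for *Hyal1*, 0.61 for *Cd44*, 0.16 for *Has3* and *Vcan*, 0.05 for *Hapln1*, -0.14 for *Hmmr* and -0.40 for *Hyal2*. These values describe 10 arches that fall into 2 genotypes, share their library normalization and differ in *Has2*, so they mainly record which genes differed between the genotypes. After removal of the genotype means, r for the 5 most similar genes was between 0.34 and 0.78.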

How the data were processed

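RNA from 10 arches was sequenced. Per the labels and the methods, the authors aligned 50 bp single-end reads to GRCm38 with STAR and counted them per gene with featureCounts (versions not given in the sources used here), and they deposited raw counts for 22114 protein-coding genes. The submitters' processing notes also name edgeR 3.18.1 and limma 3.32.7. A second deposited table holds the authors' own comparison (log2 fold changes, average expression and adjusted p-values) and was not used.

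The 14561 genes that reached 10 counts in any arch were normalized by TMM and fitted with limma-voom (limma 3.58.1, edgeR 4.0.16, R 4.3.3), with genotype as the only term. FDR values are Benjamini-Hochberg adjusted over all genes tested and called below 0.01. P-values measure the spread between embryos, whose litters are not given. Arches of 1 genotype differed beyond sampling noise (chi-square per gene 6.94 to 25.1). Floors cover counting error only. Log2 CPM used a prior count of 0.5. Exon lengths, coordinates and overlaps were read from GENCODE M21 on GRCm38, and promoters from RefSeq.

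The members and lists were chosen with earlier results of these data known. Named genes were the 9 members, listed genes at FDR below 0.01, the most abundant gene per length of each role and the 5 genes most like *Has2*; genes named after their values were seen are said to be so. Other settings tried were DESeq2 1.42.0 without independent filtering, the quasi-likelihood test of edgeR, 2 other scalings, 2 other filters, arch quality weights, the label number as a block, FDR below 0.05, a sensory neuron covariate and each arch left out. Leaving out wild-type arches 1 and 2 together, also at FDR below 0.05, was added after the data were seen. The fits were tested on simulated counts. Splice forms were not analysed here.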

Additional observations from a re-analysis of the deposited data

Results flagged for a closer look

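No gene tested this way stood out in a single arch by Dixon's test at 95%: of the 20 groups of 5 arches (each genotype for the 8 members with enough reads, *Adamts4* and *Adamts15*), 0 held an arch beyond the critical value, where about 1 would be expected by chance.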

How the results depend on the processing

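The 7 other members tested had 0 calls in either direction under each of the 22 alternatives, and *Has2* kept its sign in the 20 of them that refit the data. The number of the 35 other hyaluronan genes called higher was 2. It was 7 with DESeq2, 1 without the low-count filter, 5 with arch quality weights, 6 at FDR below 0.05, 0 with the sensory neuron covariate, and 0 without wild-type arches 1 and 2 at either threshold, and 0 to 3 when 1 arch was left out. The number called lower was 0. It was 2 with DESeq2, 1 with arch quality weights, 2 at FDR below 0.05, and 0 to 1 when 1 arch was left out. The cause of these differences was not tested, except that the looser threshold admits more genes. Over all genes, 128 were higher and 158 lower; these were 520 and 553 with DESeq2, 112 and 163 without the filter, 204 and 213 with quality weights, 559 and 564 at FDR below 0.05, 64 and 121 with the covariate, and 19 and 90 without wild-type arches 1 and 2. *Has3* reversed to -0.013 without wild-type arch 3 (range -0.013 to 0.72 over arches left out). *Hapln1* reversed to -0.10 without *Grhl2*-/- arch 1 and to -0.011 without wild-type arch 4 (range -0.10 to 0.14).

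The label number does not pair the arches by any stated rule. Once genotype means were removed, the 5 wild-type and *Grhl2*-/- pairs with the same number had a mean r of 0.0883 (-0.364 to 0.540), and the 20 pairs with different numbers -0.0191. With this number as a replicate block, 60 genes were called higher and 69 lower over all genes, 1 of the 35 hyaluronan genes was higher and 0 lower, and the log2 fold change was 0.71 for *Has2* and 0.17 for *Vcan* (FDR 0.108). Low read numbers limit *Has1*, *Has3* and the lecticans other than *Vcan*.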
